A study of Mus musculus with 7 samples.

Results

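The comparison described here set the 2 muscles titled WT against the 2 titled Ctr, which were 4 of the 7 tibialis anterior muscles in the series. All sections of a muscle were added up into 1 profile, the muscle was the replicate, and the titles alone assigned the groups. The study recorded RNA from serial cryosections of mouse tibialis anterior, a fast shin muscle, with a barcode for each section. The other 3 muscles, titled DMD, entered the fit for the spread between replicates, and their values are given beside a gene where they help to place its level. The labels gave a title and the tissue, with no strain, genotype, age, sex or treatment for any group. The column names carried the word pax7 in the WT tables, hDMD in the Ctr tables and mdx in the DMD tables, and no label explained these words. The WT tables also counted an added EGFP sequence, and the Ctr and DMD tables an added human DMD sequence. The labels did not say that the muscles came from separate animals, so the p-values measure the spread between these muscles, which may be technical.

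The WT tables had been counted with 1 gene annotation and the Ctr tables with another, so group and annotation could not be told apart. Genes with the same name and length in both were used, 53083 in all, and the exons of every one of them lay at the same coordinates in both. Reads that mapped to several places had been divided between genes, so an annotation with more or fewer copies can still shift a shared gene. Of the shared genes, 401 overlapped on their own strand a feature that only 1 annotation held.

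Skeletal muscle transcripts respond to fibre type, to feeding and fasting hormones and to the time of day. Glucocorticoid hormones bind a receptor that switches on genes such as Per1, Ddit4, Tsc22d3 and Fkbp5, and in muscle they raise genes of protein breakdown and of fat oxidation. A cryosection through a whole muscle also takes in tendon, vessels, nerve and connective tissue cells, whose marker genes move with the amount of each tissue in the block.

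Total counts were 23560829 and 18389110 in the WT muscles and 15698979 and 12391361 in the Ctr muscles, from 146 sections in each group. The WT muscles had 24240 and 22398 detected genes, the Ctr muscles 21118 and 20004. The tissue label was checked against fast fibre genes, whose summed levels lay between 170208 and 222984 CPM (counts scaled to library size by the trimmed mean of M values, TMM) in the 4 muscles. Slow fibre genes summed to between 109 and 320 CPM. Both groups lacked the levels seen in the DMD muscles for macrophage markers, which summed to between 77.7 and 122 CPM in the 4 muscles and to between 241 and 1164 CPM in the DMD muscles. Regenerating fibre markers summed to between 126 and 185 CPM in the 4 muscles and to between 653 and 1173 CPM in the DMD muscles.

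The 2 WT muscles resembled each other more than the 2 Ctr muscles did. Among 2718 genes at a mean of 20 CPM or more, 12 (0.442%) differed beyond 2-fold within the WT pair and 94 (3.46%) within the Ctr pair. Between a WT and a Ctr muscle, 123 to 299 of these genes did so (4.53% to 11.001%). The median absolute log2 ratio was 0.16 within the WT pair, 0.22 within the Ctr pair and 0.31 to 0.42 between a WT and a Ctr muscle. The pairs therefore differed more across the groups than within them, and the Ctr pair held genes that 1 of its muscles decided. Those genes are named below with both values.

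Of 13766 genes tested with edgeR's quasi-likelihood test, 61 (0.443%) had a Benjamini-Hochberg adjusted p below 0.05. Of these, 28 (0.203%) were higher in WT and 33 (0.240%) lower. The adjusted p lay between 0.045 and 0.05 for 51 of the 61, so most calls stood close to the threshold. At an unadjusted p below 0.05, 1214 genes (8.82%) were higher and 1279 (9.29%) lower. The WT and Ctr muscles did not overlap for any of the 61 genes, beside 55.0% of all genes tested. The median log2 difference over all genes tested was -0.01.

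The number of called genes changed with the muscles fitted. Without WT replicate 1 the test called 2 genes, without WT replicate 2 it called 2, without Ctr replicate 1 it called 3, and without Ctr replicate 2 it called 104. The unnamed transcripts Gm37743 and Gm43426 were called each time, and Per1 was the other gene called without Ctr replicate 1. Leaving out a DMD muscle, which enters only through the spread, the scaling and the filter, gave 18, 23 or 490 calls. A fit of the 4 muscles alone called 659 of 11999 genes (5.49%), of which 334 (2.78%) were higher in WT and 325 (2.71%) lower. All 61 genes were among those 659, and none of the 61 took the other sign in any setting tried. Folds moved less than calls: over the fits without 1 muscle the log2 difference was 1.47 to 1.71 for Actn2, 1.35 to 1.48 for Uqcrb and -1.45 to -1.31 for Mical2. Fits without a WT or Ctr muscle leave that group with 1 muscle, so their lost calls do not show smaller differences. The plot of called genes under each setting shows the range of the counts.

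**Figure D1:**
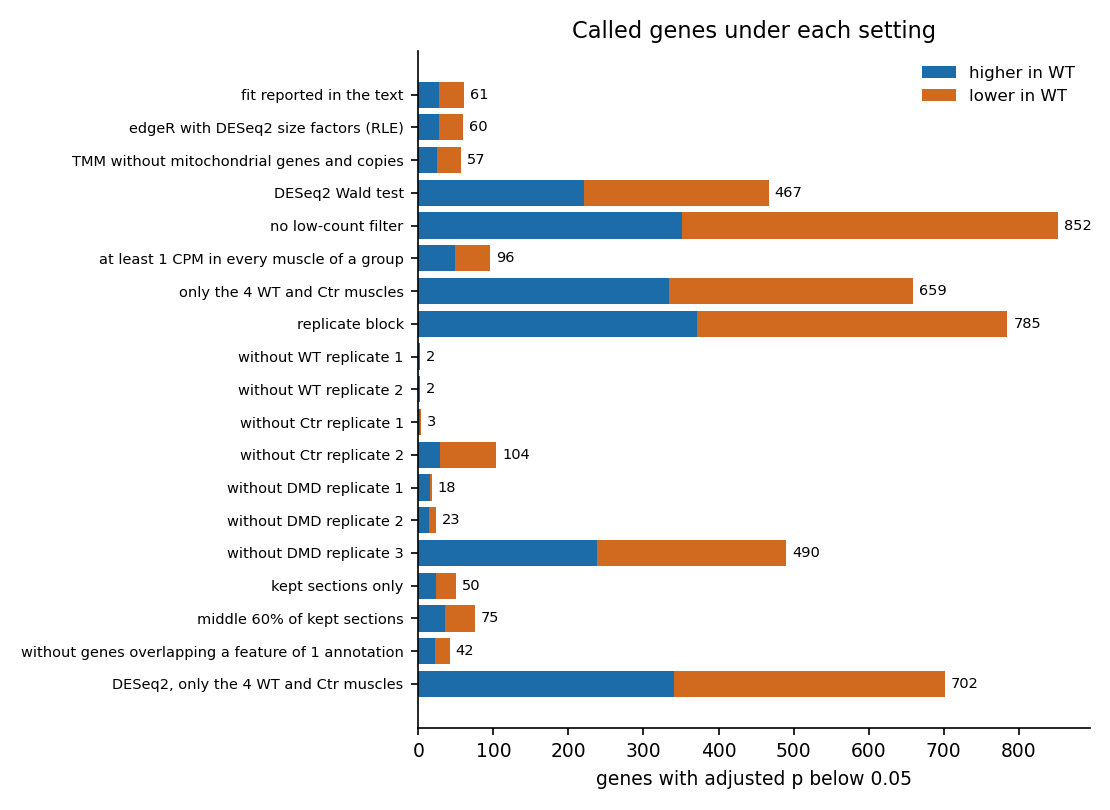
Number of genes with an adjusted p below 0.05 (x axis) under each setting (y axis), with genes higher in WT in blue and genes lower in WT in orange. The fit reported in the text called 61, and the settings ranged from 2 without either WT muscle to 852 without a filter on low counts.

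Of 10 glucocorticoid target genes tested, 2 fell in WT relative to Ctr and 0 rose, beside 0.240% of all genes called lower. The median log2 difference of the 10 was -2.30, beside -0.01 for all genes. At an unadjusted p below 0.05, 9 of the 10 were lower, beside 9.29% of all genes, and the fit of the 4 muscles alone called 6 lower. The size of this difference rested on Ctr replicate 1. Without it the list's median was -0.89, and without Ctr replicate 2 it was -2.65. This list and those below were chosen with earlier results of these data known, so their shares are descriptions and not tests.

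Per1, a clock gene that is also induced directly by glucocorticoids, stood at 3.33 and 2.85 CPM in WT, 19.97 and 20.5 CPM in Ctr and 12.1, 11.8 and 15.4 CPM in DMD. Both Ctr muscles stood at nearly the same level, and both WT muscles below all 5 others. The log2 difference was -2.70 ± 0.25 (SE; adjusted p = 0.00336), and it ranged from -2.83 to -2.60 as each muscle was left out. Counts of Per1 were present in 66.0% and 39.1% of the kept sections of the WT muscles and in 96.7% and 94.5% of those of the Ctr muscles. The lower level in WT therefore did not rest on a few sections.

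Ddit4, an inhibitor of the growth kinase mTORC1 that glucocorticoids and fasting induce, stood at 1.43 and 1.14 CPM in WT and 46.7 and 15.9 CPM in Ctr. Both Ctr muscles were far above both WT muscles, and Ctr replicate 1 was well above Ctr replicate 2. In DMD the level was 2.47, 2.24 and 4.51 CPM, close to WT. The log2 difference was -4.59 ± 0.57 (adjusted p = 0.02001), -3.61 without Ctr replicate 1 and -5.17 without Ctr replicate 2. Counts of Ddit4 were present in 42.0% and 29.7% of kept WT sections and in 100% and 94.5% of kept Ctr sections.

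The promoters of both called genes and of Sgk1, a target on the same list whose level hardly differed, are shown because these are the genes between which the list divides. Each run holds the 250 bases before a RefSeq start site on GRCm38.p6, 5′ to 3′ on the gene's strand. Capitals mark the E-box CACGTG, which clock proteins bind, and the palindromic glucocorticoid receptor site, AGAACA and TGTTCT with any 3 bases between them. Both motifs were searched on both strands, and these letters read the same on either strand.
Per1, first start, chr11:69098699-69098948, plus strand: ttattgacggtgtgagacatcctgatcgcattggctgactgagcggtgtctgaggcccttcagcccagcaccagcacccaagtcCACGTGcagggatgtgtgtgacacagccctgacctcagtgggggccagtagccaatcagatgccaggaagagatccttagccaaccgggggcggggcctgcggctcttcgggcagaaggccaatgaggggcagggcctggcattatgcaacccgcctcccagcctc
Per1, second start, chr11:69099902-69100151, plus strand: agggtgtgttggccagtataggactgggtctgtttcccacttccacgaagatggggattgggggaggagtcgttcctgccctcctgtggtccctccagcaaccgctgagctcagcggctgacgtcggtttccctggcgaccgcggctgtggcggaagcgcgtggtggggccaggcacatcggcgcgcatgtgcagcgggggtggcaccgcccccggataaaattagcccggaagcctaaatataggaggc
Ddit4, chr10:59951771-59952020, minus strand: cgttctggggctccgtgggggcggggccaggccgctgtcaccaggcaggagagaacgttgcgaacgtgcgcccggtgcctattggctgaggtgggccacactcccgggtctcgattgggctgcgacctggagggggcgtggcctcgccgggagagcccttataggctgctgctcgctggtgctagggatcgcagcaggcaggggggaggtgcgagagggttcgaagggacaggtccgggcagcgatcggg
Sgk1, chr10:21993640-21993889, plus strand: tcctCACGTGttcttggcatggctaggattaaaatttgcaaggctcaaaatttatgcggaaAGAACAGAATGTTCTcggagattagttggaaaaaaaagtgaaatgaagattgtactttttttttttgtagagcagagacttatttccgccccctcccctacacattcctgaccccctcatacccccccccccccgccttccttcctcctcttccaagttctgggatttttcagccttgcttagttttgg
Per1 had an E-box at base 85 of the first window and none in the second. Ddit4 had neither motif in its window. Sgk1 had an E-box at base 5 and a glucocorticoid receptor site at base 62. The E-box was present in 1978 of 32851 RefSeq windows of the same length (6.02%) and the receptor site in 3. Among the windows of genes called lower, 2 of 28 had an E-box, in Per1 and Mical2. A match describes these letters only, and the receptor often binds farther from the start than these windows reach.

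The other members of the list split into genes that differed from WT in both Ctr muscles and genes that differed in 1. Tsc22d3, which encodes the anti-inflammatory mediator GILZ, had 43.6 and 42.5 CPM in WT and 132 and 90.3 CPM in Ctr. Klf9, a transcription factor induced by the receptor, had 79.7 and 59.7 CPM in WT and 187 and 130.2 CPM in Ctr. Zbtb16 had 6.60 and 4.39 CPM in WT and 16.05 and 10.3 CPM in Ctr. In these 3 genes the WT and Ctr muscles did not overlap, and edgeR's adjusted p was 0.0912, 0.0777 and 0.146. Cebpd, a transcription factor of the acute phase, had 4.17 and 3.25 CPM in WT, 54.6 CPM in Ctr replicate 1 and 7.90 CPM in Ctr replicate 2. The metal-binding metallothioneins were high in Ctr replicate 1 and in no other of the 4 muscles. Mt1 had 64.1 and 24.003 CPM in WT and 752 and 42.03 CPM in Ctr, and Mt2 had 17.3 and 3.82 CPM in WT and 187 and 5.04 CPM in Ctr. Fkbp5, a chaperone that restrains the receptor, had 4.43 and 1.87 CPM in WT and 19.8 and 4.12 CPM in Ctr, so its second Ctr muscle lay within the WT range. Sgk1, a kinase of ion transport, had 60.6 and 47.7 CPM in WT and 63.1 and 56.1 CPM in Ctr, a log2 difference of -0.14.

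**Figure D2:**
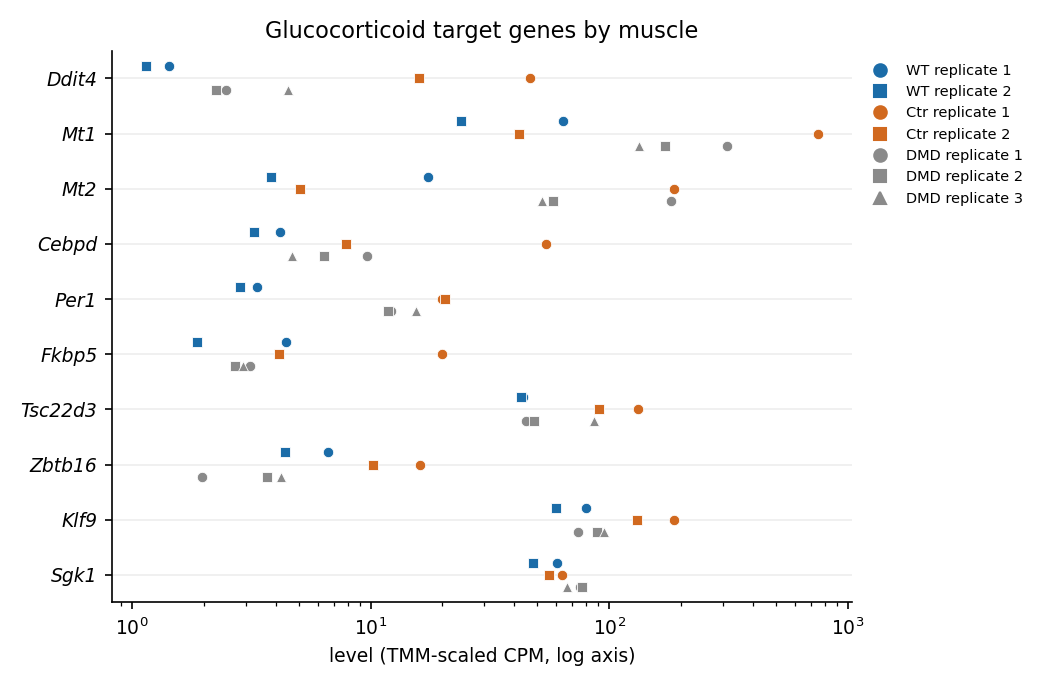
Level of each of the 10 glucocorticoid target genes (y axis) in every muscle (x axis, TMM-scaled CPM, log axis), with 1 point per muscle coloured by group. Per1 and Ddit4 show both Ctr muscles above both WT muscles, while among these 4 muscles Mt1 and Mt2 are high in Ctr replicate 1 only.

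Beside this list stand 2 more called genes, chosen for mention after their values were seen. Arrdc2, an arrestin-domain gene known to respond to glucocorticoids in muscle, had 1.16 and 0.325 CPM in WT and 15.99 and 7.56 CPM in Ctr, with no overlap. Its log2 difference was -3.88 ± 0.63 (edgeR adjusted p = 0.0457). Gm49839 is an unnamed transcript at chr17:28457484-28461095 on the minus strand, inside the span and on the strand of Fkbp5. It had 0 counts in both WT muscles and 13 and 22 counts in the Ctr muscles. Against a floor of 3 counts over the WT group, it was at least 12.9-fold lower in WT.

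The circadian clock list had 16 genes tested, of which 1, Per1, fell and 0 rose, with a median log2 difference of -0.41. At an unadjusted p below 0.05, 5 of the 16 were lower and 0 higher, beside 9.29% and 8.82% of all genes. Per2, the paralogue of Per1 in the repressor arm, had 0.317 and 0.814 CPM in WT and 1.29 and 2.52 CPM in Ctr (log2 -1.80, edgeR adjusted p = 0.135). Nr1d1, the repressor REV-ERBα, had 148 and 177 CPM in WT and 95.8 and 175 CPM in Ctr (log2 0.27). Per1 was thus the one clock gene whose difference passed the test, and the times of day at which the muscles were taken were not given in the sources used here.

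The lists of fasting fuel genes, atrophy genes, immediate early genes and oxidative coactivators had no called gene, and the median of each lay closer to 0 without Ctr replicate 1. The fatty acid oxidation list also had no called gene, with a median of -0.13 that was 0.15 without Ctr replicate 1. The fit of the 4 muscles alone called 1 of 8 fasting fuel genes, 0 of 17 atrophy genes and 1 of 14 fatty acid oxidation genes lower. It called 0 genes of these lists higher, and 2.71% of all genes lower. Fasting fuel genes had a median log2 difference of -1.24 over 11 genes, which was -0.16 without Ctr replicate 1. Their most highly expressed tested gene, Pdk2, had a log2 difference of -0.12. Pdk4, the kinase that holds back glucose oxidation, had 27.2 and 19.8 CPM in WT, 306 CPM in Ctr replicate 1 and 20.6 CPM in Ctr replicate 2. Counts of Pdk4 were present in every kept section of Ctr replicate 1, at a median of 314 CPM per section. Acot2, a thioesterase of mitochondrial fat metabolism, had 6.02 and 3.74 CPM in WT and 81.7 and 16.6 CPM in Ctr (log2 -3.32, edgeR adjusted p = 0.0579).

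Atrophy genes under FoxO transcription factors had a median log2 difference of -0.90 over 17 genes, which was -0.13 without Ctr replicate 1. Their most highly expressed tested gene, Sqstm1, had a log2 difference of -0.57. Fbxo32 and Trim63 encode the ubiquitin ligases atrogin-1 and MuRF1. Fbxo32 had 123 and 161 CPM in WT and 1184 and 234 CPM in Ctr, and Trim63 had 82.6 and 62.4 CPM in WT and 496 and 79.5 CPM in Ctr. Cdkn1a, the cell cycle inhibitor p21, had 11.8 and 6.43 CPM in WT and 171 and 15.1 CPM in Ctr. In Fbxo32, Trim63 and Cdkn1a, Ctr replicate 2 lay far closer to the WT muscles than to Ctr replicate 1.

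Immediate early genes had a median log2 difference of -1.02 over 14 genes, and -0.67 without Ctr replicate 1. Their most highly expressed tested gene, Nr4a1, had a log2 difference of -1.13. Junb, an AP-1 subunit, had 0.897 and 0.976 CPM in WT and 8.88 and 2.19 CPM in Ctr. The list of oxidative coactivators had a median of -0.84, with Ppargc1a, the coactivator PGC-1α, at 18.3 and 14.1 CPM in WT and 58.2 and 26.7 CPM in Ctr. Neither list had a called gene in the fit reported here. The fit of the 4 muscles alone called 4 of 13 immediate early genes and 1 of 7 coactivator genes lower and 0 higher. That fit called 2.71% of all genes lower. The median log2 ratio of Ctr replicate 1 to Ctr replicate 2 was 1.48 for fasting genes, 1.07 for glucocorticoid targets, 0.94 for atrophy genes and 0.86 for immediate early genes. The same ratio of WT replicate 1 to WT replicate 2 was -0.01, 0.38, 0.00 and 0.15.

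**Figure D3:**
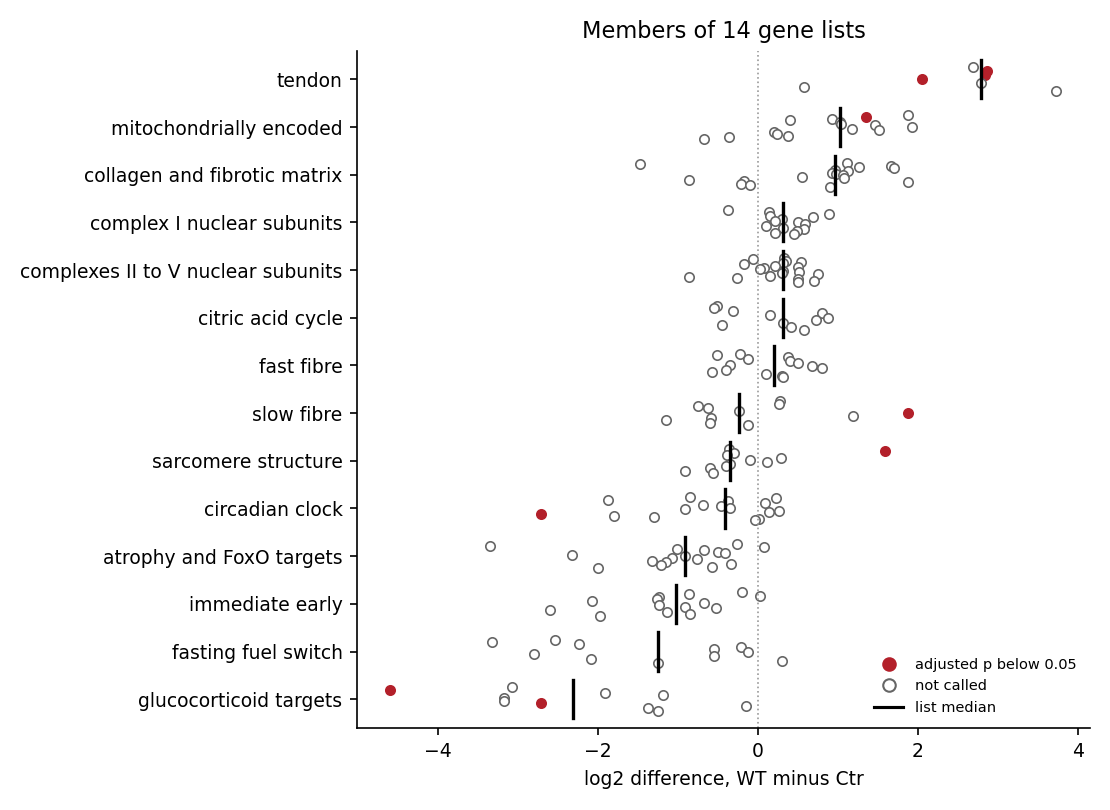
Log2 difference between WT and Ctr (x axis) of each tested member of 14 gene lists (y axis), with called genes filled and the list's median as a black line. Tendon genes lie to the right with a median of 2.80 and glucocorticoid targets to the left with a median of -2.30.

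Of 7 tendon genes tested, 3 rose in WT relative to Ctr and 0 fell, beside 0.203% of all genes called higher. Their median log2 difference was 2.80. All 7 were above in both WT muscles, beside 27.3% of all genes, and the fit of the 4 muscles alone called 6. Leaving out Ctr replicate 1 gave a median of 1.95, and leaving out Ctr replicate 2 gave 3.91. The 8 listed genes summed to 37.6 and 51.9 CPM in WT, 6.06 and 13.2 CPM in Ctr and 26.3, 35.0 and 30.1 CPM in DMD. The Ctr muscles were thus below all others. In whole sections, fewer tendon cells in the Ctr blocks and less RNA per tendon cell cannot be told apart, and the same holds for every marker gene below.

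Fmod, the collagen-binding proteoglycan fibromodulin, had 11.4 and 17.5 CPM in WT and 2.69 and 4.29 CPM in Ctr, with no overlap. Its log2 difference was 2.05 ± 0.32 (edgeR adjusted p = 0.0457). Comp, a matrix protein of tendon and cartilage, had 1.58 and 1.55 CPM in WT and 0.184 and 0.252 CPM in Ctr, the Ctr values resting on 3 counts in each muscle. Its log2 difference was 2.84 ± 0.46 (adjusted p = 0.0457). Cilp2, a matrix protein related to a cartilage intermediate layer protein, had 3.27 and 4.31 CPM in WT and 0.245 and 0.841 CPM in Ctr (log2 2.87 ± 0.50, adjusted p = 0.0481). Tnmd, the tendon membrane protein tenomodulin, had 3.96 and 7.08 CPM in WT and 0.0612 and 0.841 CPM in Ctr. Chad, the matrix protein chondroadherin, had 12.1 and 15.3 CPM in WT and 0.857 and 3.53 CPM in Ctr. Neither passed the test, with adjusted p of 0.0602 and 0.0657. Scx, the transcription factor that marks tendon progenitors, had the smallest difference of the list (log2 0.58).

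The tendon signal was examined by section. Within the WT muscles, the summed level of the 8 listed tendon genes had a median of 21.0 and 31.7 CPM per section (of the section's own counts, unscaled). In the Ctr muscles the medians were 4.06 and 9.69 CPM, and in the DMD muscles 35.2, 42.6 and 23.7 CPM. Over the final 20% of the section columns the sums were 110 and 94.9 CPM in WT and 15.4 and 27.5 CPM in Ctr, and in the remaining sections 20.9 and 27.6 CPM in WT and 3.93 and 7.91 CPM in Ctr. All 4 muscles therefore had higher tendon gene levels over the final columns than over the rest, and WT was higher in both stretches. Ctr replicate 2 also had a high first section, at 108 CPM. The labels do not say that this order is anatomical. With only the middle 60% of the sections, the list's median log2 difference was 3.75.

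**Figure D4:**
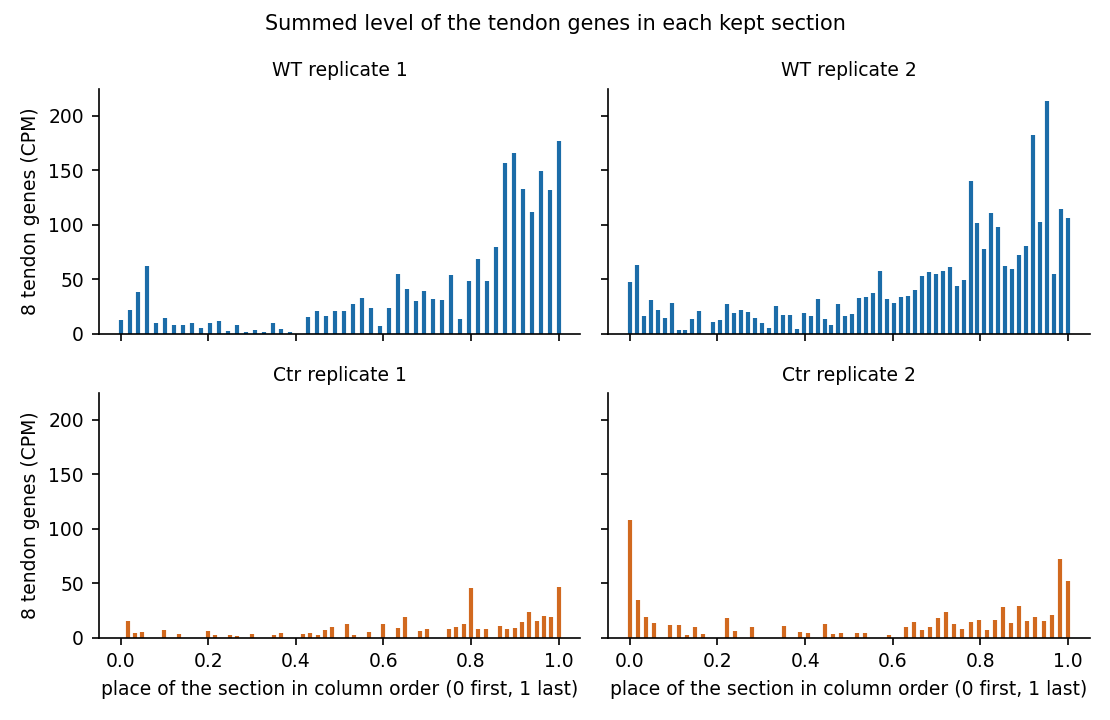
Summed CPM of 8 tendon genes (y axis, unscaled) in each kept section in column order (x axis), 1 panel per muscle. The highest bars lie toward the last columns, except in Ctr replicate 2, whose first section is highest at 108 CPM, and the WT bars are mostly taller, with medians of 21.0 and 31.7 against 4.06 and 9.69.

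Related matrix lists had no called gene. Thbs4, a thrombospondin of the myotendinous junction, had 87.6 and 170.3 CPM in WT and 33.3 and 46.4 CPM in Ctr (log2 1.69, edgeR adjusted p = 0.0651). The collagen list had 0 of 18 genes called and a median log2 difference of 0.97. Its most highly expressed tested gene, Sparc, had a log2 difference of -0.20. At an unadjusted p below 0.05, 8 of the 18 were higher and 1 lower, beside 8.82% and 9.29% of all genes. Both WT muscles lay above both Ctr muscles in 11 and below them in 2, beside 27.3% and 27.7% of all genes. The fit of the 4 muscles alone called 1 of 16 higher and 0 lower, beside 2.78% of all genes called higher. Col1a1, a chain of type I collagen, had 101 and 139 CPM in WT and 15.9 and 59.8 CPM in Ctr. Both Ctr muscles lay below both WT muscles, and Ctr replicate 1 stood well below the other 3 muscles. Without Ctr replicate 1 the list's median was 0.48. Markers of fibro-adipogenic progenitors and macrophages had medians of 0.19 and 0.14, with 0 of 10 and 0 of 14 called. Bone, cartilage and skin markers summed to 1.27 and 15.7 CPM in WT and 0.122 and 0.168 CPM in Ctr, and 1 of the 6 was tested.

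The slow fibre list and the sarcomere list each had 1 called gene. Myl3, the essential light chain of slow and cardiac myosin, had 155 and 175 CPM in WT and 40.9 and 48.8 CPM in Ctr, with no overlap. The DMD muscles were lower still, at 8.90, 8.24 and 7.89 CPM. The log2 difference between WT and Ctr was 1.88 ± 0.21 (edgeR adjusted p = 0.01199), and 1.76 to 2.00 as each muscle was left out. Myl3 was the only one of 11 slow fibre genes called. The list's median was -0.24, and it changed sign with the muscles fitted, at 0.21 without WT replicate 1, 0.58 without Ctr replicate 2 and -1.14 without Ctr replicate 1. The summed level of the list was 257 and 320 CPM in WT and 109 and 181 CPM in Ctr. Myl2, the regulatory light chain of slow and cardiac myosin, had 5.70 and 15.7 CPM in WT and 1.78 and 23.5 CPM in Ctr. Myh7, the slow myosin heavy chain, had 0.106 and 0.895 CPM in WT and 0.184 and 1.43 CPM in Ctr. The WT and Ctr muscles overlapped in both. Myoz2, a Z-disc protein of slow fibres, had 45.03 and 54.4 CPM in WT and 21.9 and 21.7 CPM in Ctr (log2 1.19, adjusted p = 0.0962).

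Actn2, the Z-disc protein α-actinin-2, was the one called gene among 12 sarcomere genes. It had 342 and 362 CPM in WT, 126 and 107 CPM in Ctr and 211, 214 and 175 CPM in DMD. The WT muscles were above all others, and the log2 difference from Ctr was 1.59 ± 0.23 (edgeR adjusted p = 0.0457). The median of the sarcomere list was -0.35. Fast fibre genes had 0 of 14 called and a median of 0.20. Mylf-ps, annotated at chr12:101221997-101222417, had 37.96 and 27.2 CPM in WT and 12.004 and 9.08 CPM in Ctr (log2 1.62). Of its 31-base words, 76.5% were shared with Myl1, the abundant fast light chain, so its value is uncertain.

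Mitochondrially encoded transcripts took a larger share of the counts in WT, 41.6% and 45.9% against 30.4% and 29.4% in Ctr. The DMD muscles, counted with the annotation used for Ctr, stood near Ctr at 29.8%, 25.7% and 34.3%. The part of the annotation in this share was not tested. The means were 43.7% ± 3.07 in WT and 29.9% ± 0.696 in Ctr (SD, n = 2 each), and an exact two-sided permutation test of WT against Ctr gave p = 0.333, the smallest that 2 against 2 muscles allow. Of the 15 listed protein and ribosomal RNA genes of the mitochondrial genome, all tested, 1 rose and 0 fell, with a median log2 difference of 1.04. At an unadjusted p below 0.05, 8 were higher, and the fit of the 4 muscles alone called 6. These genes have copies in the nuclear genome, so reads are shared and single values are less certain.

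The called member of the list was mt-Atp8, a subunit of ATP synthase whose reading frame overlaps that of mt-Atp6. It had 376 and 462 CPM in WT and 172 and 156 CPM in Ctr (log2 1.35 ± 0.24, edgeR adjusted p = 0.0481). In DMD, mt-Atp8 had 97.2, 125 and 124 CPM. The members did not share 1 direction. Among protein genes, mt-Nd2 had the largest log2 difference at 1.94, mt-Atp6 had 1.88 (adjusted p = 0.0579) and mt-Nd1 had 1.46. The ribosomal RNAs had differences of the other sign, -0.36 for mt-Rnr1 and -0.67 for mt-Rnr2. A mitochondrial gene outside the list was also called. The transfer RNA gene mt-Tw, which overlaps the end of mt-Nd2, rose from 76.6 and 78.003 CPM in Ctr to 318 and 522 CPM in WT (log2 2.44 ± 0.40, adjusted p = 0.0457).

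Of the nuclear-encoded mitochondrial genes, 0 of 15 complex I subunits, 0 of 20 subunits of complexes II to V and 0 of 11 citric acid cycle enzymes were called, with medians of 0.31, 0.32 and 0.31. The fit of the 4 muscles alone called 1, 1 and 3 of them higher and 0 lower, beside 2.78% of all genes called higher. A respiratory chain gene outside those lists did rise. Uqcrb, a subunit of complex III, had 1171 and 1289.8 CPM in WT, 474 and 447 CPM in Ctr and 582, 653 and 519.5 CPM in DMD (log2 1.42 ± 0.23, edgeR adjusted p = 0.0457). Pseudogene transcripts shared 34.8% of its words, so its value is less certain. Several called genes resemble mitochondrial DNA. Gm13341, at chr2:22587291-22587962, had 4021 and 4393 CPM in WT and 1626 and 1531 CPM in Ctr, and 48.0% of its words were shared with mt-Co2. Gm11512, Gm11410 and Gm11408 shared 6.003%, 6.56% and 7.36% of theirs with mt-Co1, mt-Cytb and mt-Nd6.

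The remaining genes with the largest rises had no list in common. Nmrk2, a muscle kinase in the synthesis of NAD from nicotinamide riboside, had 44.2 and 45.4 CPM in WT, 4.23 and 11.8 CPM in Ctr and 47.4, 35.6 and 60.4 CPM in DMD. The Ctr muscles were below all 5 others, and the log2 difference was 2.50 ± 0.43 (edgeR adjusted p = 0.0467). Stradb, a pseudokinase that partners the energy-sensing kinase LKB1, had 111 and 111 CPM in WT and 45.9 and 40.01 CPM in Ctr (log2 1.36 ± 0.24). Cstf3, a factor of mRNA 3′ end cleavage, had 34.6 and 40.3 CPM in WT and 13.8 and 11.1 CPM in Ctr (log2 1.58 ± 0.23). The uncharacterised gene 2210016F16Rik had 109 and 127 CPM in WT and 40.9 and 34.3 CPM in Ctr (log2 1.65 ± 0.27). In each of these 4 the WT pair and the Ctr pair were both tight relative to the gap, apart from the Ctr pair of Nmrk2. In DMD, Stradb had 42.9, 28.4 and 37.5 CPM, Cstf3 14.1, 12.2 and 10.5 CPM and 2210016F16Rik 42.8, 36.7 and 26.1 CPM. These DMD levels lay near Ctr, whose annotation the DMD tables shared, and the part of the annotation was not tested.

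Among called genes at a mean of 20 CPM or more that overlapped no feature of 1 annotation, the 3 with the largest falls were on no list. Tob2, an antiproliferative regulator of mRNA decay, had 9.87 and 4.64 CPM in WT and 36.9 and 34.5 CPM in Ctr (log2 -2.28 ± 0.37, edgeR adjusted p = 0.0457). Rhob, a small GTPase of early response, had 9.03 and 7.16 CPM in WT and 25.1 and 42.7 CPM in Ctr (log2 -2.06). Fzd4, a Wnt and norrin receptor of endothelial and other cells, had 12.4 and 8.87 CPM in WT and 44.04 and 27.2 CPM in Ctr (log2 -1.74). The WT muscles lay below all 5 others in each of the 3. The endothelial markers had 0 of 10 called and a median log2 difference of 0.25.

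The other 5 genes named for their falls changed by less. Srrm2, a scaffold of nuclear speckles, had 25.5 and 18.4 CPM in WT and 59.2 and 64.5 CPM in Ctr (log2 -1.49), and Rbm25, a splicing factor, had 21.8 and 16.2 CPM in WT and 49.1 and 48.7 CPM in Ctr (log2 -1.36). Gatad2b, a subunit of the NuRD chromatin complex, had 36.95 and 30.9 CPM in WT and 79.6 and 83.1 CPM in Ctr (log2 -1.26). Mical2, an enzyme that oxidises actin, had 32.3 and 35.7 CPM in WT and 88.9 and 87.4 CPM in Ctr (log2 -1.37). Atp6v0a1, a subunit of the proton pump of lysosomes, had 16.2 and 14.6 CPM in WT and 36.99 and 37.6 CPM in Ctr (log2 -1.27). The Ctr pair agreed closely in all 5 genes. EdgeR's adjusted p was between 0.0457 and 0.0488 for each.

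**Figure D5:**
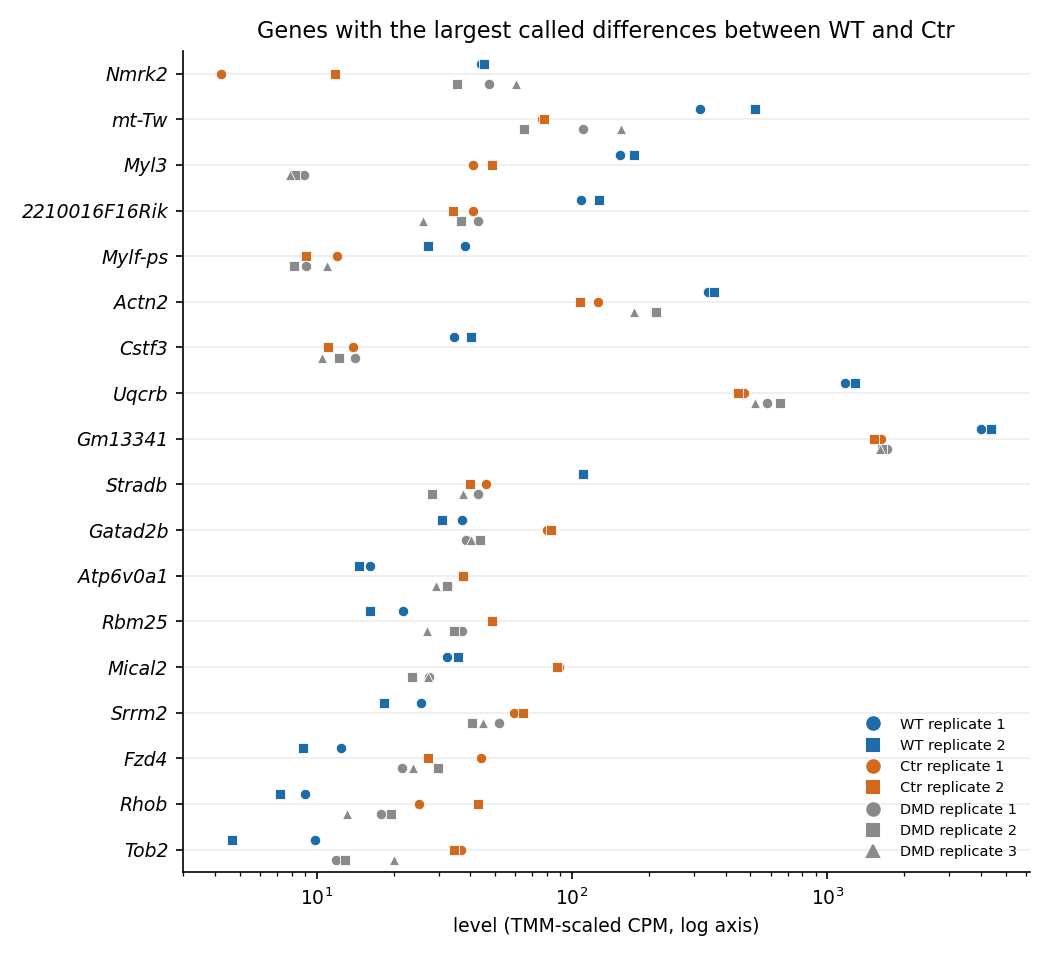
Level of the 18 genes with the largest called differences (y axis) in every muscle (x axis, TMM-scaled CPM, log axis), 1 point per muscle coloured by group, where coinciding points hide one another. The upper 10 genes have both WT muscles to the right of both Ctr muscles and the lower 8 have them to the left.

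Unnamed gene models were common among the genes higher in WT. Of the 28, 14 (50%) had a gene-model or pseudogene name, against 4 of the 33 lower genes (12.1%) and 13.0% of all genes tested. Gm37743, at chr15:7669965-7670340 on the minus strand, had 418 and 141 counts in the WT muscles and 1 and 0 in the Ctr muscles. Gm43426, at chr5:48058051-48060647 on the plus strand, had 421 and 141 counts in WT and 1 and 0 in Ctr. In the DMD muscles the counts were 2, 0 and 1 for Gm37743 and 1, 1 and 1 for Gm43426. The ratios of WT to Ctr were 505 (95% counting interval 90.3 to 19988) and 508 (90.8 to 20095), and the intervals cover counting error only. Both had nearly the same counts in each of the 4 muscles, though their annotated transcripts shared no 31-base word with each other or with another gene. Gm17509, at chr13:117218701-117221075 inside Emb on the opposite strand, had 21.3 and 18.3 CPM in WT and 2.45 and 2.27 CPM in Ctr (log2 3.06 ± 0.29, edgeR adjusted p = 0.00401). In DMD, Gm17509 had 2.71, 1.65 and 2.73 CPM. These 3 were chosen after their values were seen.

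Several other called genes shared words with another gene, on either strand, which makes their values less certain where reads are divided. Reads were counted by strand, so words shared on opposite strands need not divide them. Gm48142 shared 100% of its words with Cep295, Gm49719 shared 76.5% with E430024P14Rik, and Gm47283 on chromosome Y shared 46.8% with Gm21887. Among the lower genes, Rn7s1 and Rn7s2 shared 100% of their words with each other, Rn7s6 shared 54.8% with Rn7s1, C4b shared 48.3% with C4a, and Gm47644 shared 59.3% with Pln on the other strand. The 3 Rn7s genes, which encode the RNA of the signal recognition particle, also overlapped features held by 1 annotation. In the fit without all genes that had such an overlap, 57 of the 61 were still tested. That fit called 42 genes, and all 42 were among the 61. The median edgeR adjusted p of the 57 was 0.0458 there, close to the threshold, so a lost call need not mean an overlap.

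Further called genes, also named after their values were seen, were mostly present at low levels. Igfn1, a Z-disc-associated immunoglobulin-domain protein of muscle, had 0.9503 and 0.895 CPM in WT and 11.1 and 4.79 CPM in Ctr (log2 -3.11 ± 0.47, edgeR adjusted p = 0.0457). Cep85l, a centrosomal gene, had 2.11 and 2.28 CPM in WT and 24.6 and 7.48 CPM in Ctr (log2 -2.88). Gm47644, the unnamed transcript that shares words with Pln, lies inside the span of Cep85l on the same strand, at chr10:53337753-53345085, and had 1.48 and 1.55 CPM in WT and 8.27 and 5.55 CPM in Ctr (log2 -2.20). Both neighbours fell in WT, and their WT values were alike within each gene. C4b, a complement component, had 2.22 and 2.28 CPM in WT, 10.7 and 7.56 CPM in Ctr and 10.2, 16.5 and 11.01 CPM in DMD (log2 -2.03). Hoxa5, a homeobox gene of body position, had 2.48 and 2.28 CPM in WT and 6.55 and 7.23 CPM in Ctr (log2 -1.53). Cpox, an enzyme of haem synthesis, had 10.5 and 8.71 CPM in WT and 22.9 and 25.6 CPM in Ctr (log2 -1.33). The erythroid list had 0 of 5 genes called and a median of -1.04, with -0.01 when Ctr replicate 2 was left out and -1.60 when Ctr replicate 1 was. Its summed level was 6448 CPM in Ctr replicate 1 and 21742 CPM in Ctr replicate 2. Among higher genes, Spon2, a secreted matrix protein, had 4.49 and 2.85 CPM in WT and 0.429 and 0.504 CPM in Ctr (log2 2.99). Plg, the plasma protease precursor plasminogen, had 12.1 and 12.9 CPM in WT and 3.98 and 3.19 CPM in Ctr (log2 1.79). The WT and Ctr muscles did not overlap in either gene. Dimt1, an enzyme that modifies ribosomal RNA, had 29.9 and 27.3 CPM in WT and 11.3 and 10.002 CPM in Ctr (log2 1.43), and 30.7% of its words were shared with Kif2a.

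Dystrophin and its complex were checked because the added human DMD sequence and the unexplained header word hDMD carry that gene's symbol. Mouse Dmd had 16.4 and 13.5 CPM in WT and 9.55 and 16.1 CPM in Ctr, which overlapped (log2 0.23). Of 13 complex genes tested, 0 were called, with a median of -0.10. Nos1, the neuronal nitric oxide synthase that docks on the complex, had 66.7 and 49.9 CPM in WT and 149 and 110.4 CPM in Ctr without overlap (log2 -1.15, edgeR adjusted p = 0.1095). Pax7, a satellite cell transcription factor whose symbol matches the unexplained word in the WT headers, had 1.85 and 1.22 CPM in WT and 0.306 and 0.336 CPM in Ctr (log2 2.26, adjusted p = 0.0752). The satellite cell list had 0 of 7 called and a median of -0.05. The fit of the 4 muscles alone called 2 of the 7 higher and 0 lower, beside 2.78% of all genes called higher.

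Genes that report sex and inbred background were compared as checks of origin. The Y-linked genes Ddx3y, Eif2s3y, Kdm5d and Uty were detected in all 7 muscles, and Xist had 0 and 0 CPM in WT and 0.0612 and 0.0841 CPM in Ctr. Nnt, the mitochondrial transhydrogenase that is truncated in some C57BL/6 substrains, had 16.8 and 9.11 CPM in WT, 4.72 and 3.28 CPM in Ctr and 11.4, 6.59 and 17.9 CPM in DMD (log2 1.70, edgeR adjusted p = 0.115). Glo1, Wdfy1 and Entpd4, whose copy number or expression differs between inbred strains, were not called, with log2 differences of 0.19, -0.08 and -0.38.

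Of the 45 lists, 6 had a called gene and 53 of the 61 called genes were on no list. Of the lists without a call, 37 other than the checks of sex and inbred background were each represented by their most highly expressed tested gene. That gene differed by less than 1 on the log2 scale in 27 of them, and the smallest adjusted p among these 37 genes was 0.0651. Ribosomal protein genes had a median of 0.27, glycolysis genes 0.12 and dystrophin complex genes -0.10, each with 0 called.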

How the data were processed

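Polyadenylated RNA from single cryosections of mouse tibialis anterior was barcoded by section, per the labels. Per the submitters' processing notes, the aligner was STAR 2.7.7a and the build GRCm38. Each deposited table holds expected counts per gene and section from featureCounts 2.0.1 (options -M -O --fraction -s 1), per the file headers, so multi-mapped and multi-overlapping reads are fractions. The WT tables used Ensembl release 102 and the Ctr and DMD tables another annotation, per the file headers.

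All sections were summed per muscle over the 53083 gene names with the same length in both annotations, without spike-ins and added sequences, and rounded to whole numbers. Genes passing edgeR's filterByExpr (13766) were TMM-scaled and tested with edgeR 4.0.16 in R 4.3.3 (glmQLFit and glmQLFTest, WT minus Ctr, all 7 muscles in the fit, 4 residual degrees of freedom), with Benjamini-Hochberg adjustment and a threshold of 0.05. Levels are TMM-scaled CPM. Section values used sections with at least 1000 counts and 20% of their muscle's median (114 WT, 116 Ctr). DESeq2 1.42.0 and the other settings in the closing section were alternatives. The duplicate check gave a chi-square per degree of freedom of 31.4 in the WT pair and 46.2 in the Ctr pair, so neither pair was 1 library deposited again.

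Genes are named by a rule. It takes the 10 largest differences, where as many were called, in each direction among genes at a mean of 20 CPM or more, without overlap between groups or with a feature of 1 annotation. It also takes up to 3 called members per list, or the most highly expressed tested gene where none was called, and checks of origin. Other list members in the text fall outside this rule and were chosen with the values known. Among them are Pdk4, Acot2, Fbxo32, Trim63, Cdkn1a, Junb, Col1a1, Nos1, Tnmd, Chad and Pax7. The members and the 45 lists were chosen with earlier results of these data known. On simulated counts of 13151 genes for this comparison, the test recovered 98% of 100 genes changed by a log2 of 2 and 100% of 100 changed by 3, and called 18 unchanged genes. Changes were planted only in genes above a minimum mean level, with the spread taken from the fit itself. The shares therefore do not give the power for the observed genes, of which some with log2 differences beyond 2 were not called. Sequence sharing is the share of a gene's 31-base words found, on either strand, in another gene's GENCODE transcripts. Promoter sequences are RefSeq's.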

Additional observations from a re-analysis of the deposited data

Results flagged for a closer look

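Sequences outside the shared genes were counted in both groups. The added EGFP sequence had 36 counts in WT replicate 1 and 15 in WT replicate 2. The added human DMD sequence had 304.41 counts in Ctr replicate 1 and 306.44 in Ctr replicate 2, or 19.4 and 24.7 CPM unscaled. It was counted at similar levels in the DMD muscles, at 19.5, 22.7 and 14.4 CPM unscaled. Each sequence was counted in 1 of the 2 annotations only, so neither has a value in the other group, and these counts entered no test.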

How the results depend on the processing

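The count of 61 called genes was 60 with DESeq2's size factors, 57 without mitochondrial genes and some of their nuclear copies, 50 with kept sections only, 75 with the middle 60% of sections and 42 without genes overlapping a feature of 1 annotation. It was 96 with a filter of at least 1 CPM, 852 with no filter, 659 with the 4 muscles alone, 467 by DESeq2's Wald test and 702 by DESeq2 on the 4 muscles, the last added after the data had been seen. Leaving out each muscle gave 2 to 490 calls. With a group of 1 muscle, the lone muscle is assumed to vary like the other groups. The cause of these differences was not tested, apart from the number of genes tested and of muscles fitted. The difference in mitochondrial share, 13.8 percentage points, was 17.1 with the nuclear copies Gm10925, Gm28661 and Gm28437 included. Only these copies were left out of the fit without mitochondrial genes. Gm13341 and the other called genes that resemble mitochondrial DNA stayed in that fit and outside this share.

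With a replicate block the test called 785 genes. The labels gave muscles with the same number nothing in common but the number. The deviations of WT and Ctr muscles with the same number correlated at r = 0.02 over genes. With 2 muscles per group, crossed numbers give the same value with the other sign by construction, here -0.02. Such a value cannot show whether muscles with the same number shared a batch. The block also turned the log2 difference of Myl2 to 0.16.

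None of the genes whose sign changed was called. Over fits without 1 muscle, the log2 difference ranged over -0.33 to 0.0227 for Sgk1, -4.09 to 0.0717 for Mt1, -4.66 to 1.09 for Mt2, -0.10 to 0.76 for Nr1d1, -3.70 to 0.19 for Pdk4, -1.15 to 2.57 for Myl2, -2.81 to 1.29 for Myh7, -0.11 to 0.64 for Dmd, -0.75 to 0.00678 for Ddx3y, -0.00686 to 0.22 for Uty, -0.55 to 0.75 for Wdfy1 and -1.73 to 0.091 for Hba-a1. The middle sections gave Dmd -0.00163. Few counts limit genes below about 1 CPM, such as Comp in Ctr, where 3 counts stood in each muscle.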

Other observations

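The 2 α-globin genes were counted in different proportions in the 2 groups. The ratio of Hba-a2 to Hba-a1 was 0.104 and 0.331 in the WT muscles, 0.683 and 0.654 in the Ctr muscles and 0.709, 0.668 and 0.677 in the DMD muscles. The β-globin ratio of Hbb-bt to Hbb-bs was between 0.202 and 0.256 in all 7. Of the 31-base words of Hba-a2, 92.6% were shared with Hba-a1, so the α-globin values depend on how shared reads were divided. The part of the annotation, the genotype and the blood content in these ratios was not tested.

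The spike-in sequences took 0.00116% and 0.000571% of counts in the WT muscles and 0.00922% and 0.0145% in the Ctr muscles, so the groups did not overlap in their spike-in share.

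The transcripts Gm37743 and Gm43426 lie on different chromosomes and shared no 31-base word, yet their counts were 418 and 421 in WT replicate 1 and 141 and 141 in WT replicate 2. Both had 1 and 0 counts in the Ctr muscles. Counts of Gm37743 were present in 100% and 96.9% of the kept sections of the WT muscles and in 4.92% and 3.64% of those of the Ctr muscles.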
